A study of Mus musculus with 5 samples.

Results

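The respiratory chain of mitochondria is built from subunits encoded in the nucleus and from subunits encoded in the mitochondrial genome. The genes described here are those whose symbols begin with Nduf (complex I and its assembly factors), Uqcr (complex III), Cox4, Cox5, Cox6, Cox7 or Cox8 (complex IV) or Atp5 (complex V), the genes Sdha, Sdhb, Sdhc and Sdhd (complex II), and the protein genes of the mitochondrial genome. Of the 31253 genes counted, 109 had such a name. Of these, 103 had at least 20 unique molecular identifiers (UMIs, tags that mark single RNA molecules) over the 4 libraries with counts: 90 nuclear genes and all 13 mitochondrial protein genes. The nuclear genes were 37 of complex I, 4 of complex II, 8 of complex III, 16 of complex IV, 17 of complex V and 8 assembly factors named Ndufaf. Complexes were assigned by name. Those of complex IV include Ndufa4, Cox7a2l and Cox5b-ps, and those of complex I include Ndufb1-ps. Cox5b-ps and Ndufb1-ps are named as pseudogenes. The genes under the minimum were Ndufa4l2 with 16 UMIs, Cox4i2 with 12, Cox8c with 4, Cox7b2 with 1, and Cox8b and a second identifier of Atp5o with 0.

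Complex I takes electrons from NADH and complex II takes them from succinate. Ubiquinone carries them to complex III and cytochrome c to complex IV, which passes them to oxygen, and complex V, the ATP synthase, uses the resulting proton gradient to make ATP. Complexes I, III, IV and V mix subunits from both genomes, whereas complex II is wholly nuclear. Resting lymphocytes rely largely on this chain, and activated lymphocytes combine it with glycolysis.

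The study profiled single cells sorted as innate lymphoid cells (ILCs) from kidney and as ILC3s from intestine with the BD Rhapsody system, and its title concerns PD-1 and the migration of ILC3s in kidney fibrosis. Unilateral ureteral obstruction (UUO), the tying of a ureter, is the injury, and in sham surgery the ureter was not tied. All animals were male mice aged 8 to 10 weeks, and each group was 1 library with the number of mice not given. The groups were wild-type kidney 14 days after UUO (no strain named for wild type), kidney 3 days after UUO of the strain B6.Cg-Pdcd1tm1.1Shr/J (a germline PD-1 knockout), wild-type intestine after sham surgery and wild-type intestine 3 days after UUO. A further library, wild-type kidney at day 3, was not analysed here. The 2 kidney libraries therefore differ in genotype and in day together, and these cannot be told apart. With 1 library per group there is no test of any difference between libraries: every interval below is a 95% interval for counting error only.

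The 4 libraries held between 8717372 and 16466027 UMIs in 3621 to 7007 barcodes. Cells were gated by marker UMIs as ILC1/NK cells, ILC2s, ILC3s, CD8 T, CD4 T and other T cells. In the intestinal libraries the ILC3 gate alone held at least 50 cells, with 2585 sham and 2318 UUO cells, and all 8 ILC3 markers were detected in both. Subsets of these with the markers of CCR6-type (lymphoid tissue inducer) or of NCR-type ILC3s were also compared. CCR6-type held 466 sham and 475 UUO cells and NCR-type 325 and 191, and the remaining ILC3s were in neither subset. Cells with at least 2 UMIs of B cell, myeloid or epithelial genes were left out: 2.78% and 2.76% of kept cells in the wild-type and knockout-labelled kidney, but 22.0% in sham and 50.2% in UUO intestine. The intestinal pair shared 158 barcodes, where the other pairs with barcode lists shared 22 to 27. Without the shared barcodes, of which 16 were in the sham and 6 in the UUO ILC3 gate, the mitochondrial log2 ratio of UUO over sham given below was 0.26 and the nuclear one -0.05, as with them. Pdcd1, the gene removed in the knockout strain, was counted at 127 CPM (a gene's UMIs scaled to a fixed class total) in wild-type kidney and 190 CPM in the kidney labelled knockout. The counted tags may lie outside the deleted part, so this checks nothing, and the latter is called the knockout-labelled library throughout.

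Of the 13 mitochondrial protein genes, 7 carried nearly all of the counts: over the 4 libraries mt-Cytb had 614748 UMIs, mt-Nd1 510238, mt-Nd2 496385, mt-Co1 479887, mt-Nd4 414615, mt-Nd6 299844 and mt-Nd5 254878. These 7 made up 99.9% of the mitochondrial part in both intestinal ILC3 gates. The other 6 had 2195 UMIs for mt-Nd3, 667 for mt-Atp6, 666 for mt-Co2, 142 for mt-Co3, 83 for mt-Nd4l and 49 for mt-Atp8, so complex IV was represented almost wholly by mt-Co1 and complex V hardly at all. The nuclear genome carries copies of mitochondrial DNA, and in the GRCm38 transcripts a run of such pseudogenes on chromosome 1 covers mt-Co2, mt-Atp6, mt-Co3, mt-Nd3 and mt-Nd4l over at least 98% of their length at an identity of at least 98%. None of these copies has a row in the count tables, and the handling of reads that match both places is a step not given in the sources used here.

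Ends of 4 mitochondrial transcripts are shown because their counts differ so widely while their nuclear copies differ in identity. The copy taken for each was the longest annotated one that aligned without gaps. Coordinates are GRCm38, and the windows of 60 bases lie on the plus strand of the mitochondrial genome. Capitals mark bases that differ between a gene and its copy. For mt-Co2 (chrM:7634-7693) and mt-Nd3 (chrM:9744-9803) the copies Gm28661 and Gm28438 on chromosome 1 are identical in these windows. For mt-Nd2 (chrM:4892-4951) and mt-Cytb (chrM:15228-15287) the copies taken have 3 and 5 differing bases. Over their whole alignments, of 510 and 1142 bases, their identity is 96.67% and 92.91%.
mt-Co2: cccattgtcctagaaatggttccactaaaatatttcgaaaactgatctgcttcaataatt
mt-Nd3: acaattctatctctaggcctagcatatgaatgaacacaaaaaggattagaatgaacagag
mt-Nd2: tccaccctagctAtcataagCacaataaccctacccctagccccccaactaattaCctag
Gm13339 copy of mt-Nd2: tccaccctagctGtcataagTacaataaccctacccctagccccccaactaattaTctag
mt-Cytb: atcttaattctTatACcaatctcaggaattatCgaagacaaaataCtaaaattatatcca
Gm11410 copy of mt-Cytb: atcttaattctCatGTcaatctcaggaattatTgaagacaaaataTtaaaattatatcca

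Copied sequence and low counts did not always go together. The last 300 bases of mt-Co1 are fully copied in Gm29216, with 1 mismatch over 483 bases, yet mt-Co1 was among the most counted genes. For mt-Atp8, the least counted, no such copy was found, but only annotated transcripts were searched. mt-Atp8 lies between mt-Co2 and mt-Atp6, which are both copied on chromosome 1, so an unannotated copy may exist there. In mt-Nd4 the first 876 bases are copied and none of the last 300. The mt-Nd6 gene lies on the minus strand and overlaps the end of mt-Nd5 at chrM:13552-13565. Reads of this overlap cannot be assigned, the counting strand being a setting not given in the sources used here. For the same reason, mt-Nd6 counts cannot be told from reads of the opposite strand across the whole gene. This limit holds for every mt-Nd6 value below.

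**Figure D1:**
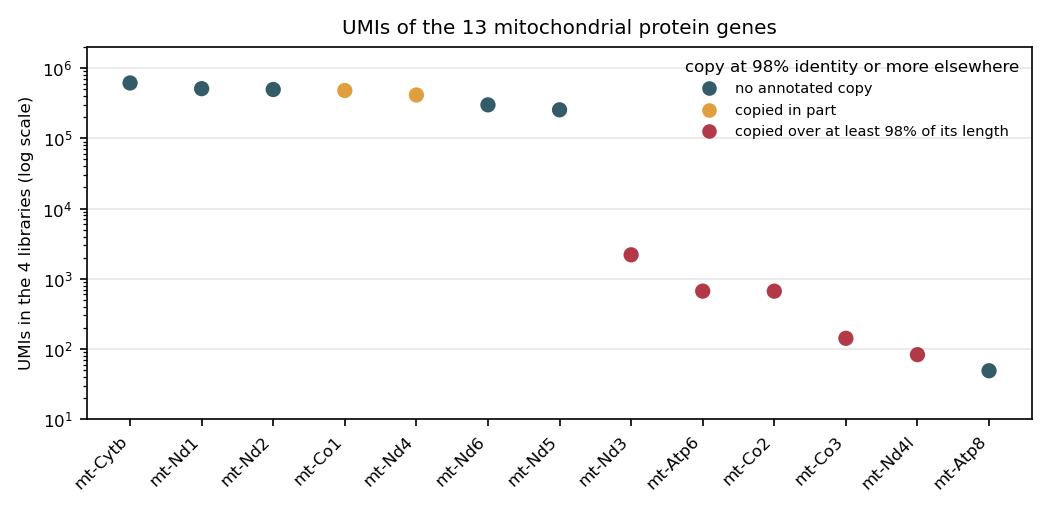
UMIs of each mitochondrial protein gene over the 4 libraries (log axis), coloured by how much of the transcript is copied in nuclear pseudogenes. The 7 genes from mt-Cytb to mt-Nd5 lie at or above 254878 UMIs, and the other 6 lie at or below 2195.

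The nuclear part, the summed UMIs of its 90 genes, was a nearly constant share of each class. In the wild-type kidney it was 1.20% (1.18 to 1.22) in ILC1/NK cells, 1.07% (1.05 to 1.10) in ILC2s, 1.20% in CD8 T, 1.17% in CD4 T and 1.27% in other T cells. In the knockout-labelled kidney ILC1/NK cells had an interval of 1.23 to 1.27%, and ILC2s, CD8 T, CD4 T and other T cells held 1.16%, 1.19%, 1.17% and 1.24%. Intestinal ILC3s held 1.01% in the sham and 0.976% (0.967 to 0.985) in the UUO library. ILC2s were the lowest class of the wild-type kidney, and in the knockout-labelled kidney their interval overlapped that of CD4 T cells. Both intestinal ILC3 gates lay below every kidney class.

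The mitochondrial part varied more. It was 4.29% of UMIs in wild-type kidney ILC1/NK cells, 4.62% in CD4 T, 4.88% in CD8 T, 5.05% in ILC2s and 5.30% in other T cells. In the knockout-labelled kidney it was 5.11% in ILC2s, 5.34% in ILC1/NK cells, 5.58% in CD4 T, 5.63% in CD8 T and 6.02% in other T cells. Intestinal ILC3s held 3.23% in the sham and 3.88% in the UUO library, both below all kidney classes. Tissue and library cannot be told apart. The small kidney ILC3 gates, with 127 and 104 cells, held 4.42% and 5.33%, close to the other classes of their own libraries.

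**Figure D2:**
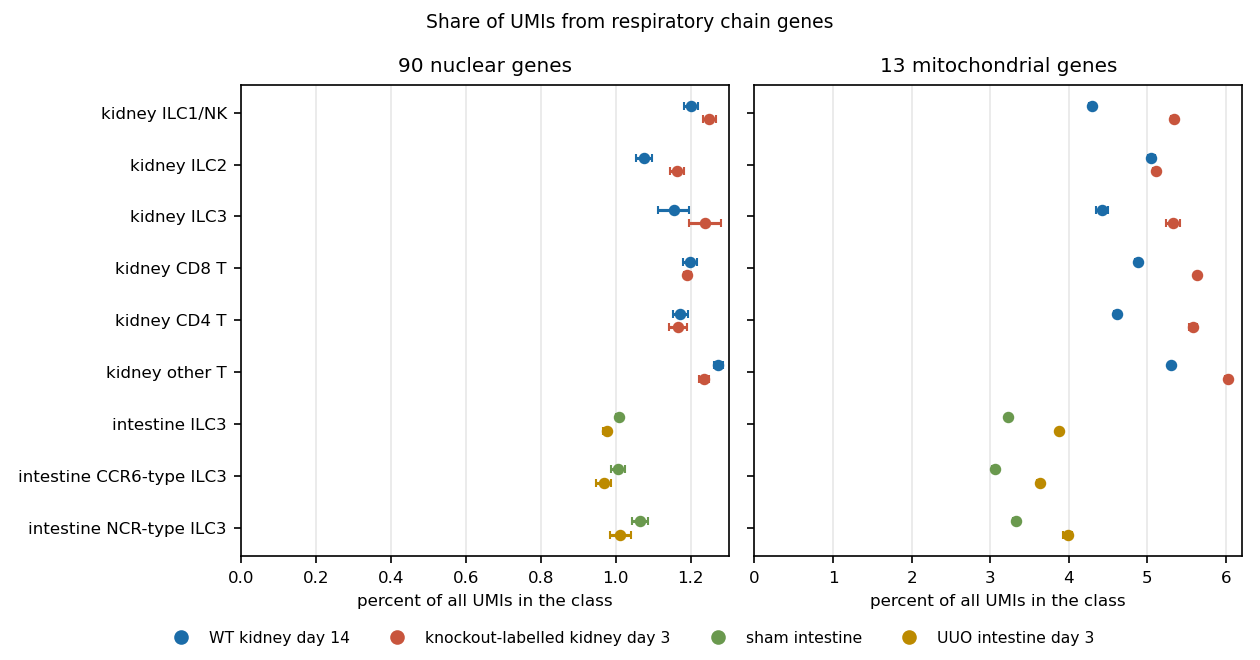
Share of UMIs in the nuclear part (90 genes) and in the mitochondrial part (13 genes) by class and library, with exact Poisson 95% intervals. Nuclear shares lie between 0.967% and 1.27%, and mitochondrial shares between 3.06% in sham CCR6-type ILC3s and 6.02% in knockout-labelled other T cells.

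The comparison of intestinal ILC3s between UUO and sham asks how the gut cells differed after injury of the kidney. The mitochondrial part was 1.20-fold higher in the UUO library, a log2 ratio of 0.26 (0.25 to 0.27), while the nuclear part was slightly lower, at -0.05 (-0.06 to -0.03). The mitochondrial genes did not differ equally. mt-Co1, the catalytic subunit of complex IV, was 3336 CPM in sham and 6463 CPM in UUO ILC3s, 1.94-fold apart, with a log2 ratio of 0.95 (0.93 to 0.98). As given above, the last 300 bases of mt-Co1 are copied in Gm29216, so its counts are uncertain. In the kidney classes mt-Co1 lay between 6316 and 8743 CPM, so the sham value was the one that stood apart from all other libraries.

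Among the complex I genes, mt-Nd5 was 2369 CPM in sham and 3227 CPM in UUO ILC3s (log2 ratio 0.45), and mt-Nd6 was 2757 and 3508 CPM (0.35). mt-Nd1 was 5457 and 5809 CPM (0.09), mt-Nd2 5770 and 6018 CPM (0.06) and mt-Nd4 5086 and 5521 CPM (0.12). mt-Cytb, the mitochondrial subunit of complex III, was 7496 and 8189 CPM (0.13), and mt-Nd3, with few UMIs, had a log2 ratio of 0.38. All of these were higher in the UUO library, but mt-Co1, mt-Nd5, mt-Nd6 and mt-Nd3 had log2 ratios of at least 0.32 and the others did not. mt-Co1 made up 10.3% of the mitochondrial part in sham ILC3s, 16.7% in UUO ILC3s and 13.2% to 16.5% in the kidney classes. Without mt-Co1, the mitochondrial part had a log2 ratio of 0.16 (0.15 to 0.17).

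The same genes were counted in cells of these libraries outside the ILC3 gate. In cells left out for epithelial genes (2245 UUO and 539 sham) the log2 ratio was 0.70 for mt-Co1, 0.27 for mt-Nd5 and 0.063 for mt-Nd6, against -0.10 for mt-Nd1 and -0.10 for mt-Cytb. In cells left out for myeloid genes (550 and 328) it was 1.03 for mt-Co1, 0.55 for mt-Nd5 and 0.32 for mt-Nd6, and over all kept cells mt-Co1 was 2.16-fold higher in the UUO library. Higher mt-Co1 was counted in each of these sets, of which the epithelial-gene and myeloid-gene cells share members and all kept cells hold the others. Library and surgery cannot be told apart.

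**Figure D3:**
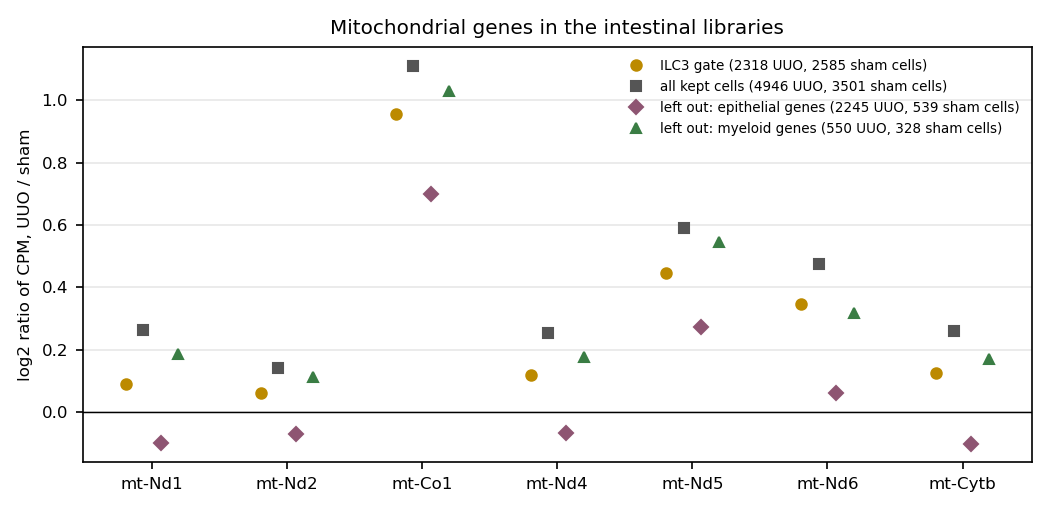
log2 ratio of UUO over sham intestine for each well-counted mitochondrial gene, in the ILC3 gate, in the cells left out for epithelial or myeloid genes and in all kept cells. mt-Co1 has the highest ratio in each set of cells, from 0.70 in epithelial-gene cells to 1.11 in all kept cells.

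Few nuclear members were called different between UUO and sham ILC3s. Of 83 with at least 100 UMIs in the 2 gates together, 3 had a log2 ratio of at least 0.32 toward the UUO library, the size at which a gene is called higher or lower here, where 9.2% of all 8186 such genes were, and 1 was lower, where 8.29% of all genes were. At 1.5-fold 0 were higher and 0 lower, where 2.68% and 1.8% of all genes were. The members' shares of 3.61% and 1.20% at the lower threshold lay below both backgrounds, and their median log2 ratio was -0.05, beside a median of all genes of 0.00. The backgrounds were not matched for UMIs per gene, so the shares do not show that members differed less. At any size of ratio, the counting intervals of 2 members lay above 0 and those of 11 below 0. Uqcrc1, a core subunit of complex III, was 66.7 CPM in sham and 86.0 CPM in UUO ILC3s (0.37, 0.16 to 0.58). Cox7a1, the heart and muscle form of a complex IV subunit, was 11.8 and 16.8 CPM (0.50, 0.01 to 1.0), and Ndufa11 of complex I was 10.9 and 14.2 CPM (0.38, -0.15 to 0.91). The lower one was Atp5g2, a gene for the c ring of the ATP synthase, at 12.6 and 9.02 CPM (-0.48, -1.07 to 0.10), so 2 of these 4 intervals span 0. Pseudogenes copy 12.5% of the Atp5g2 transcript and 13.5% of that of Ndufab1. Of genes at or near the threshold, Ndufab1, the acyl carrier subunit of complex I, was 43.2 and 34.6 CPM (-0.32, -0.62 to -0.03) and Ndufa8 had a log2 ratio of -0.31.

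By complex, the summed nuclear genes assigned to complex IV were 3081 CPM in sham and 2865 CPM in UUO ILC3s, a log2 ratio of -0.11 (-0.14 to -0.07). Cox6c, a small structural subunit, was 683 and 582 CPM (-0.23, -0.30 to -0.16), and Cox4i1, Cox7a2 and Cox8a had log2 ratios of -0.14, -0.15 and -0.13. Nuclear complex IV and mt-Co1, which belong to the same enzyme, therefore differed in opposite directions between these libraries, with the limit given for mt-Co1. Complex II was 411 and 441 CPM (0.10, 0.02 to 0.19), with 0.12 for Sdha, -0.05 for Sdhb, 0.23 for Sdhc and 0.08 for Sdhd. Complexes I, III and V had log2 ratios of -0.04, 0.03 and -0.03, and the summed Ndufaf assembly factors were 126 and 111 CPM (-0.18, -0.35 to -0.02).

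The 9 intestinal epithelial markers were all detected in both ILC3 gates and summed to 544 CPM in sham and 954 CPM in UUO cells, and the 5 fibroblast and pericyte markers summed to 144 and 58.2 CPM. Their part in these results was not tested. When Fabp2 was dropped from the genes that exclude epithelial cells, an alternative chosen after seeing the data, the mitochondrial log2 ratio was 0.27, but no nuclear member was called higher: Uqcrc1 was at 0.31, Cox7a1 at 0.30 and Ndufa11 at 0.10.

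In the kidney, the knockout-labelled library at day 3 was compared with the wild-type library at day 14 class by class. All 5 comparisons use the same 2 libraries, so their values are given side by side and are not independent of each other. ILC2s had the higher nuclear part in the knockout-labelled library, with a log2 ratio of 0.11 (0.08 to 0.15), and an almost equal mitochondrial part, at 0.02. In ILC1/NK cells the nuclear ratio was 0.06 (0.03 to 0.09) and the mitochondrial one 0.31 (0.30 to 0.33). CD8 T cells had -0.01 and 0.21, CD4 T cells -0.01 and 0.27, and other T cells -0.04 and 0.18. With clusters in place of gates the mitochondrial ratio was 0.378 in CD8 T and 0.350 in other T cells, and the CD4 T nuclear ratio was 0.023 with mitochondrial and ribosomal protein genes left out of the denominator. The mitochondrial part was thus higher in the knockout-labelled library in 4 of these classes and near equal in ILC2s.

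Nuclear members were called higher more often than genes at large in ILC2s. Of 62 measured, 15 (24.2%) were called higher, where 15.8% of all genes were, and 5 (8.06%) were lower, where 13.2% of all genes were. At 1.5-fold 4 were higher and 0 lower, beside 4.72% and 3.15% of all genes. The backgrounds here and in the classes below were not matched for UMIs per gene. These shares therefore do not show that members differed more or less than other genes. The median of the members was 0.08. Ndufs6, a subunit of complex I, was 37.4 CPM in wild-type and 57.5 CPM in knockout-labelled ILC2s (0.62, 0.03 to 1.24). Ndufa5 and Ndufs1, also of complex I, were higher by 0.69 and 0.59, although complex I as a whole had a ratio of 0.01. Atp5b, the catalytic subunit of the ATP synthase, was 180 and 260 CPM (0.54, 0.27 to 0.81), and Atp5o of its stalk had a ratio of 0.51. Cox6c was 332 and 471 CPM (0.50), and the genes assigned to complex IV, Cox7a2l among them, were together higher by 0.18 (0.12 to 0.25). Among the lower ones, Atp5e, the smallest subunit of the ATP synthase head, was 250 and 181 CPM (-0.46, -0.73 to -0.20). The other lower ones, Ndufb11, Ndufb10, Ndufa6 and Ndufb1-ps of complex I, had ratios between -0.40 and -0.36. That ILC2s differ from the other classes in this count was not tested.

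Other measures moved with this ILC2 difference. Of the 9 cell cycle genes measured in ILC2s, 8 were higher in the knockout-labelled library and 0 lower, and 8.74% of its ILC2s had at least 2 UMIs of cell cycle genes against 3.79% in the wild-type library. Without those cells the nuclear ratio was 0.09, with 12 members higher and 4 lower. Hspa1b, a heat shock gene that responds to tissue handling, was 179 CPM in wild-type and 16.8 CPM in knockout-labelled ILC2s. The part of these differences in the nuclear result was otherwise not tested.

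In ILC1/NK cells the share of members called higher was close to the background, and in the T cell classes both shares were below it. Of 71 members in ILC1/NK cells, 9 (12.7%) were higher, beside 12.6% of all genes, and 6 (8.45%) lower, beside 17.1%. At 1.5-fold these were 1 and 1, beside 3.61% and 3.79%, and with mitochondrial and ribosomal protein genes left out of the denominator 12 were higher and 5 lower. Ndufb8 of complex I was 27.9 CPM in wild-type and 54.3 CPM in knockout-labelled ILC1/NK cells (0.96, 0.41 to 1.53), Cox6c 360 and 510 CPM (0.50, 0.34 to 0.66) and Sdhd, a membrane anchor of complex II, 93.0 and 132 CPM (0.50). Ndufs6 was 75.1 and 53.2 CPM here and Ndufa13 was 171 and 121 CPM, each with a ratio of -0.50. Ndufs3 had a ratio of -0.75, but 75.7% of its transcript is copied in the pseudogene Gm12251, so its counts are uncertain. In CD8 T cells 7 of 79 were higher and 10 lower, beside 16.3% and 18.7% of all genes, and at 1.5-fold 1 and 1, beside 5.65% and 5.69%. Cox5b was 135 and 187 CPM in CD8 T cells (0.47, 0.24 to 0.71) and Ndufab1 54.5 and 33.3 CPM (-0.71, -1.10 to -0.30). In CD4 T cells 5 of 60 were higher and 6 lower, beside 13.4% and 19.4%, led by Cox7a2l at 0.58 and Ndufb1-ps at -0.75. In other T cells 5 of 77 were higher and 13 lower, beside 14.4% and 23.1%, led by Ndufb8 at 0.87 and Ndufb6 at -0.74.

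Side by side, for genes chosen after their values were seen and in the order ILC2, ILC1/NK, CD8 T, CD4 T and other T cells, Cox6c had log2 ratios of 0.50, 0.50, 0.39, 0.11 and 0.18. Cox7a2l, a factor that joins complexes III and IV into supercomplexes and of whose transcript 17.8% is copied in Gm6969, had 0.46, 0.39, 0.29, 0.58 and 0.19. Sdhd had 0.34, 0.50, 0.17, 0.39 and 0.35, and Ndufa8 had 0.32, 0.41, 0.34, 0.45 and 0.32. Ndufa13 had -0.12, -0.50, -0.46, -0.29 and -0.60, and Atp5e had -0.46, -0.16, -0.26, -0.43 and -0.46. By complex, in the same order of classes, complex II had ratios of 0.22, 0.13, 0.12, 0.25 and 0.13, and complex I had 0.01, -0.05, -0.10, -0.06 and -0.16.

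**Figure D4:**
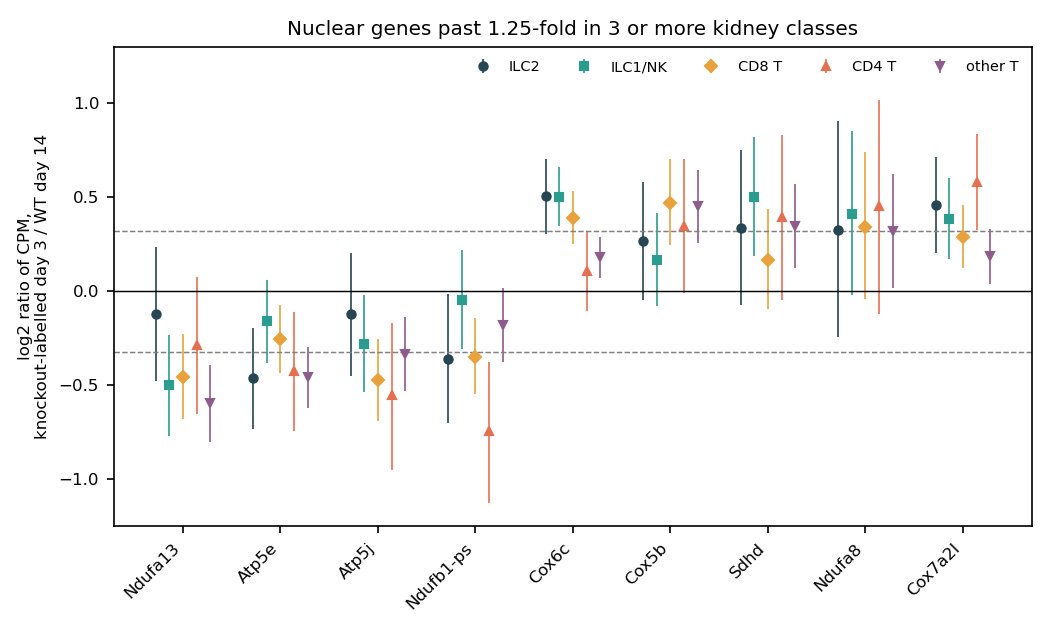
log2 ratio of the knockout-labelled kidney at day 3 over wild-type kidney at day 14 for 9 nuclear members in 5 classes, with 95% counting intervals. The 9 genes were chosen after their values were seen, and the points run from -0.75 for Ndufb1-ps to 0.58 for Cox7a2l, both in CD4 T cells.

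The mitochondrial genes of the kidney differed unequally too, but in another order than in the intestine. In ILC1/NK cells mt-Nd6 was 4447 CPM in the wild-type and 6208 CPM in the knockout-labelled library (0.48), mt-Nd1 6904 and 9190 CPM (0.41), mt-Nd5 3860 and 4993 CPM (0.37) and mt-Nd2 7825 and 9810 CPM (0.33). mt-Cytb was 7719 and 9156 CPM (0.25) and mt-Co1 6462 and 7024 CPM (0.12). In CD8, CD4 and other T cells mt-Nd6 had the highest of these ratios, at 0.39, 0.53 and 0.52, whereas mt-Cytb had 0.09, 0.09 and 0.01 and mt-Co1 0.15, 0.19 and 0.12. In ILC2s the ratios of the 7 well-counted genes lay between -0.07 for mt-Cytb and 0.15 for mt-Nd1. The erythroid markers summed to 5.16 CPM in wild-type and 79.8 CPM in knockout-labelled CD8 T cells, and their part in these results was not tested.

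Classes within 1 library can be compared without a difference between libraries. Against CD8 T cells, ILC2s had a nuclear log2 ratio of -0.16 in the wild-type and -0.03 in the knockout-labelled kidney, and a mitochondrial ratio of 0.05 and -0.14. The median of all genes was itself -0.19 and -0.18 in this contrast. Relative to that median the nuclear part was 0.04 and 0.15, and the mitochondrial part 0.24 and 0.05. The direction of the nuclear part in both libraries, and of the mitochondrial part in the knockout-labelled one, therefore depends on the scale. Of 65 members, 3 were called lower in both libraries (Ndufb1-ps, Ndufb7 and Ndufaf8), beside 27.4% of all genes, and 0 were higher, beside 14.4%. At single-library level 1 of 65 was higher and 13 lower in the wild-type kidney (18.2% and 39.7% of all genes), and relative to the median these were 9 and 4. In the knockout-labelled kidney 4 of 79 were higher and 10 lower (18.6% and 40% of all genes), and relative to the median 16 and 3.

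ILC1/NK cells against CD8 T cells had a nuclear ratio of 0.00 in the wild-type and 0.07 in the knockout-labelled kidney, and a mitochondrial ratio of -0.18 and -0.08. The mitochondrial direction in the wild-type library changed to 0.04 when classes came from clusters in place of gates. Of 71 members, 2 were higher in both libraries, beside 11.6% of all genes, and 0 were lower, beside 10.7%. Cox7a2, the broadly expressed partner of Cox7a1 in complex IV, was 227 CPM in ILC1/NK and 155 CPM in CD8 T cells of the wild-type library (0.55, 0.30 to 0.81), and 245 and 175 CPM in the knockout-labelled one (0.48, 0.32 to 0.65). Sdhc, the other membrane anchor of complex II, had ratios of 0.38 and 0.52. Cox7a2l, whose protein resembles that of Cox7a2, had ratios of -0.39 and -0.30, of which the second was not past the threshold.

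Among intestinal ILC3s, CCR6-type cells had a lower nuclear part than NCR-type cells, with log2 ratios of -0.08 in sham and -0.06 in UUO, and a lower mitochondrial part, with -0.12 and -0.13. The mitochondrial part was 3.06% of UMIs in CCR6-type and 3.33% in NCR-type cells of the sham library. In the UUO library it was 3.64% and 3.99%. Median UMIs per cell were 2087 in CCR6-type and 2504 in NCR-type cells of sham, and 2175 and 2618 in UUO. In the same order, 0.858%, 2.46%, 1.47% and 5.76% of cells had at least 2 UMIs of cell cycle genes. By the mean of per-cell shares in cells of 1000 to 4000 UMIs, the UUO nuclear ratio was -0.015. mt-Nd6 was the gene furthest apart among the well-counted ones, at -0.38 and -0.36. Of 50 nuclear members, Ndufa6 was higher in CCR6-type cells of both libraries (0.53, 0.10 to 0.96, and 0.67, 0.09 to 1.28), beside 12.7% of all genes. Ndufa1, Ndufa3 and Ndufv3, also of complex I, were lower in both, beside 11.3% of all genes, with ratios of -0.74 and -0.45, -0.51 and -0.71, and -0.55 and -0.55. The interval of Ndufa1 in the UUO library, -0.92 to 0.02, spans 0. The count lower in both was 8 without Fabp2 among the excluding genes and 5 with clusters.

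**Figure D5:**
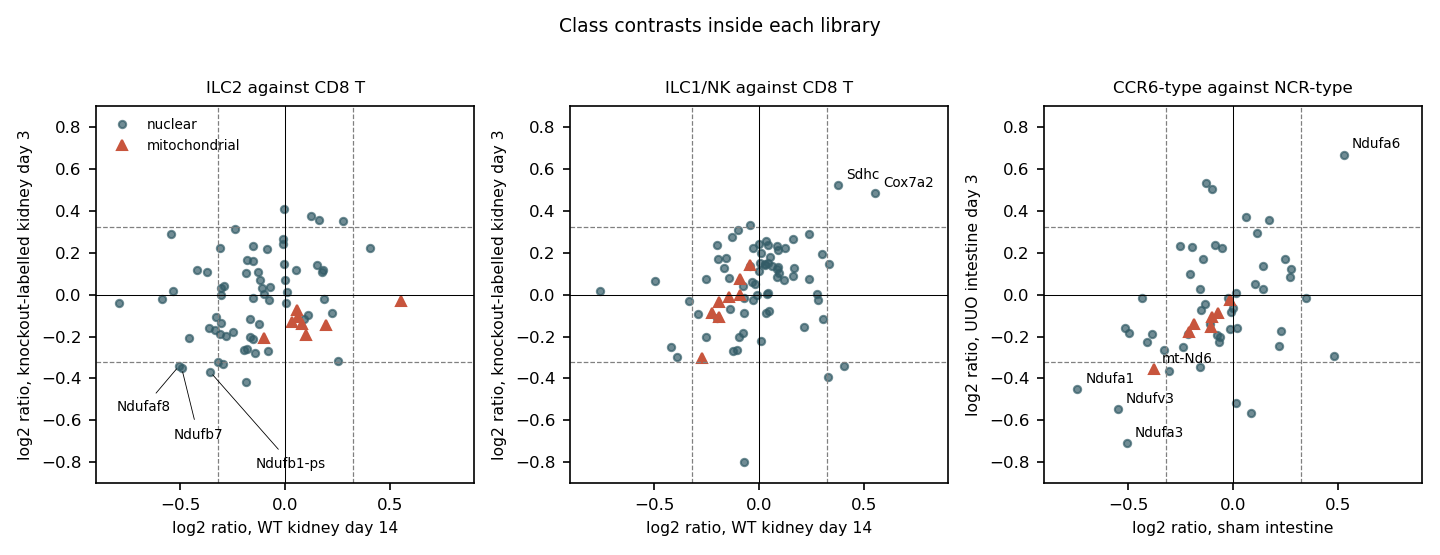
log2 ratio of each nuclear member in 1 library plotted against the same ratio in the other library, for ILC2 against CD8 T, ILC1/NK against CD8 T and CCR6-type against NCR-type ILC3. Dotted lines mark a log2 ratio of 0.32 in either direction; Cox7a2 and Sdhc pass it upward in both kidney libraries in the ILC1/NK panel, and Ndufa6 in both intestinal libraries.

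Some complex IV and complex I subunits have forms restricted to certain tissues. Cox7a1 was 11.8 CPM in sham ILC3s (64 UMIs in 60 cells) and 16.8 CPM in UUO ILC3s (78 UMIs in 77 cells), but 1.64 CPM (0.90 to 2.76) and 1.55 CPM (0.93 to 2.42) over the gated cells of the wild-type and knockout-labelled kidney. Its counts were spread over many cells, mostly 1 UMI each. All barcodes of the sham and UUO libraries together held 387 and 1182 Cox7a1 UMIs, so most lay in cells outside the ILC3 gate, and the part of free RNA in the ILC3 values was not tested. Cox6a2, the heart and muscle form of Cox6a1, had the opposite distribution. It was 9.30 CPM in ILC1/NK cells of the wild-type kidney (13 UMIs in 6 cells) and 11.6 CPM in the knockout-labelled kidney (21 UMIs in 11 cells). In ILC2s it was 6.23 CPM (6 UMIs, all in 1 cell) and 19.2 CPM (24 UMIs in 8 cells), and in CD8 T cells 0.74 and 2.28 CPM. All barcodes of the wild-type and knockout-labelled kidney held 62 and 166 Cox6a2 UMIs. These class values rest on few cells with several UMIs each, and whether those cells were gated rightly was not tested. In intestinal ILC3s Cox6a2 had 0 UMIs in both libraries, which allows up to 0.554 CPM in sham and 0.645 CPM in UUO (3 counts). Tissue and library cannot be told apart here.

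Related mitochondrial genes from lists written for this work were counted in the same way. Between UUO and sham ILC3s, Tfam, the factor that packages and transcribes mitochondrial DNA, was 37.3 CPM in sham and 50.5 CPM in UUO cells (0.44, 0.16 to 0.71), and 4 of 12 genes of mitochondrial DNA expression were higher and 2 lower. Of all genes in this comparison, 9.2% were higher and 8.29% lower, which holds for the counts of the next lists too. Of 19 genes of the TCA cycle and pyruvate entry, 2 were higher and 0 lower. Coq10b, which binds ubiquinone, was 265 and 363 CPM (0.45, 0.35 to 0.56), in a list where 1 of 8 was higher and 0 lower. Of 66 mitochondrial ribosomal protein genes 2 were higher and 8 lower. In ILC2s of the knockout-labelled against the wild-type kidney, where 15.8% of all genes were higher and 13.2% lower, 3 of 13 TCA cycle genes were higher and 0 lower, 2 of 9 fatty acid oxidation genes higher and 0 lower, and 5 of 12 mitochondrial ribosomal protein genes higher and 1 lower. The phosphate carrier gene Slc25a3, which supplies complex V, was 954 CPM in wild-type and 1224 CPM in knockout-labelled ILC2s (0.36), and had ratios of 0.36 in ILC1/NK and 0.46 in CD8 T cells. In CD8 T cells, where 16.3% of all genes were higher and 18.7% lower, 0 of 18 TCA cycle genes were higher and 1 lower, and of 66 mitochondrial ribosomal protein genes 17 were higher and 8 lower.

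Many nuclear respiratory genes are known to be controlled by the factors NRF1, GABPA and YY1, so their promoters were searched for the binding motifs of these factors on both strands. RefSeq promoters (GRCm38.p6, 250 bases before to 50 after a gene's start) were found for 75 of the 90 nuclear members. The NRF1 motif was in 19 of 75 members (25.3%), against 7.17% of 17492 protein-coding genes. The GABPA letters CCGGAAG were in 19 members (25.3%), against 12.95% of all, and the YY1 letters AAGATGGC in 11 (14.7%), against 3.57%. By complex, the NRF1 motif was in 7 of 33 complex I genes, 2 of 3 of complex II, 1 of 5 of complex III, 1 of 12 of complex IV and 6 of 15 of complex V. YY1 letters were in 7 of complex I, 3 of complex V, 1 assembly factor and 0 of complexes II, III and IV. The protein-coding genes were not matched to the members for expression or base composition. The higher shares are therefore not shown to be particular to respiratory genes. The motifs were short consensus forms written for this work and not taken from a motif database, and a match is not evidence of binding.

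Promoter windows of Sdhd and Ndufa11, members named above, are shown because their NRF1 match lies before both the RefSeq start and the GENCODE transcript. Sdhd had log2 ratios of 0.34 and 0.50 in ILC2s and ILC1/NK cells of the knockout-labelled over the wild-type kidney, and Ndufa11 had 0.38 in UUO over sham ILC3s, with an interval that spans 0. The windows hold 25 bases on each side of the match, on the strand of the gene and with the match in capitals, at chr9:50603894-50603953 (minus strand) for Sdhd and chr17:56717677-56717736 (plus strand) for Ndufa11.
Sdhd: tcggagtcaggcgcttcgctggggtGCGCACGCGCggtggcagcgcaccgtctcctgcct
Ndufa11: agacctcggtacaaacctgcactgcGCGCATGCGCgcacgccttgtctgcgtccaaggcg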

How the data were processed

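Single cells of kidney and intestine were measured in 5 libraries of male mice, and 4 libraries with count tables were analysed. The deposited values are UMI counts per gene and cell, made by the authors. Tools listed in the submitters' processing notes are Seurat, UMI-tools and CASAVA 1.8, with mm10 as the build; aligner, annotation, strand setting and cell calling were not given in the sources used here. A pulmonary artery digestion stands among the labels' protocols and does not match the organs. Gene names of wild-type kidney at day 14 were taken from the other libraries, whose lists were identical (correlation of log2 CPM across genes with the knockout-labelled kidney 0.992, and 0.209 after a shift by 1 row). For wild-type kidney at day 3 the 5444 barcodes were counted and no counts were analysed here.

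Cells were kept with at least 500 UMIs, 250 genes and at most 20% mitochondrial UMIs. T cells needed 2 UMIs of CD3 genes and 1 of a T cell receptor constant gene. ILCs had 0 CD3 UMIs and at least 2 of 8 markers of their class. No doublet caller was run; cells with at least 2 UMIs of B cell, myeloid or epithelial genes were left out. For each class of each library, a gene's summed UMIs were scaled to the total of that class to give CPM. Exact Poisson 95% intervals were computed for levels, and Clopper-Pearson (exact conditional binomial) ones for ratios; both cover counting error only. A gene with 100 or more UMIs over the 2 sides was called different, without a test, at a log2 ratio of 0.32 or more in size. The sums and intervals were tested on simulated data.

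Named genes were up to 6 members with the highest and 6 with the lowest ratio of each comparison, all mitochondrial protein genes, the tissue isoforms with their partners, Cox7a2l, the Sdh genes and Ndufab1, and the extremes of each related list; some genes that this rule names are not reported here. The members and lists were chosen with earlier results of these data known. Nuclear copies came from blastn 2.17.0 on GRCm38 transcripts. A transcript was found for 89 of the 90 nuclear members. None was found for Ndufb1-ps, so its copies were not searched. Python 3.11.15, numpy 2.4.6, scipy 1.17.1, pandas 2.3.3 and scanpy 1.11.5 (with leidenalg 0.10.2) were used. Alternatives concerned the mitochondrial limit, the denominator, the gates, clusters, cycling cells, even depth, shared barcodes, the fold and the UMI minimum.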

Additional observations from a re-analysis of the deposited data

Results flagged for a closer look

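Ndufs6, a subunit of complex I, differed in opposite directions in 2 classes under the same contrast: its log2 ratio of the knockout-labelled kidney at day 3 over wild-type kidney at day 14 was 0.62 in ILC2s and -0.50 in ILC1/NK cells, with intervals of 0.03 to 1.24 and -0.91 to -0.09. With 1 library in each group the difference was not tested. Part of its transcript, 8.32%, is identical to Ndufs6b.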

How the results depend on the processing

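No paired analysis was possible because each group has 1 library. Of the part ratios outside CD4 T and other T cells, 33 values moved by more than their counting interval and 100 did not. Of the counts of members outside those classes, 33 moved by more than 1.5 times and 87 did not. Among the other ratios, of single genes and of the CD4 T and other T parts, 104 moved and 1460 did not. The 4 ratios called reversed are given below. Of the CD4 T and other T counts, 10 moved and 22 did not. Unless stated, the causes were not tested.

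For intestinal ILC3s, UUO against sham, the mitochondrial log2 ratio was 0.204 with no mitochondrial limit and 0.158 without mt-Co1. The count lower was 2 with stricter gates, 4 with clusters and 4 at 20 UMIs, the count higher was 0 without Fabp2, and both were 0 at 1.5-fold.

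For knockout-labelled against wild-type kidney with the denominator without mitochondrial and ribosomal protein genes, the ratios were 0.087 (nuclear) and 0.344 (mitochondrial) in ILC1/NK cells and 0.224 (mitochondrial) in CD8 T cells. The last was 0.225 with stricter gates and 0.378 with clusters, where the CD8 T nuclear ratio was 0.027 and the count lower in ILC2s was 2. At 1.5-fold the counts higher and lower were 4 and 0 in ILC2s, 1 and 1 in ILC1/NK and 1 and 1 in CD8 T cells. At 20 UMIs they were 24 and 11 in ILC2s, and the counts higher were 14 in ILC1/NK and 11 in CD8 T cells. Ndufs1 in CD4 T cells, higher in the gates, was at -0.28 with clusters.

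For ILC2s against CD8 T cells in the wild-type kidney, the nuclear ratio was -0.115 with clusters and -0.195 by the mean of per-cell shares in cells of 1000 to 4000 UMIs, and the mitochondrial ratio 0.080 with stricter gates, 0.281 with clusters and 0.103 by per-cell shares. In the knockout-labelled kidney the nuclear ratio was -0.0052 with clusters, -0.073 without cycling cells and -0.082 by per-cell shares. The mitochondrial ratio there was -0.158 with the other denominator, -0.083 with clusters and -0.098 by per-cell shares. The count higher in both libraries was 2 with clusters, and the count lower in both was 5 by per-cell shares, 0 at 1.5-fold and 6 at 20 UMIs.

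For ILC1/NK against CD8 T cells in the wild-type kidney, the nuclear ratio was -0.043 with the other denominator and 0.070 with clusters. The mitochondrial ratio was -0.230 with the other denominator, -0.167 with stricter gates, -0.160 by per-cell shares and, with its sign changed, 0.043 with clusters. In the knockout-labelled kidney the nuclear ratio was 0.035 with the other denominator and 0.100 with clusters, and the mitochondrial ratio -0.111, -0.019 with clusters and -0.051 by per-cell shares. The count higher in both was 1 with stricter gates, 1 with clusters and 0 at 1.5-fold, and the count lower in both was 1 with the other denominator and 1 at 20 UMIs.

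For CCR6-type against NCR-type ILC3s, clusters gave -0.143 (nuclear) and -0.088 (mitochondrial) in sham, and per-cell shares -0.015 (nuclear) in UUO. The count higher in both was 2 by per-cell shares, 0 at 1.5-fold and 5 at 20 UMIs, and the count lower in both was 5 with clusters, 8 without Fabp2, 0 at 1.5-fold and 5 at 20 UMIs. Atp5j in sham was at -0.060 with clusters, and Ndufs1 in UUO at -0.14 with clusters and -0.18 without Fabp2, each on the other side of 0 than with the gates used.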
